A study of Mus musculus with 2 samples.

Results

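Glycolysis splits glucose into pyruvate, and lactate dehydrogenase then reduces pyruvate to lactate. In white fat the pathway also feeds fat storage, because it supplies the glycerol 3-phosphate backbone of triglyceride and carbon for fatty acid synthesis. The mRNAs of 10 enzymes of this pathway were followed in RNA recovered with an antibody against HuR, an RNA-binding protein known to bind AU-rich and U-rich stretches, mostly in 3′ untranslated regions (3′ UTRs), and to stabilise many of the mRNAs it binds. The genes were Hk2, Gpi1, Pfkl, Aldoa, Tpi1, Gapdh, Pgk1, Pgam1, Eno1 and Ldha. They were chosen by name, 10 of the 38396 gene rows in the table, and each name matched exactly 1 row.

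RNA immunoprecipitation followed by sequencing (RIP-seq) was carried out on epididymal white adipose tissue (eWAT) of mice 6 weeks of age. Control mice were HuRf/f littermates, which carry floxed HuR alleles and no Cre. HuR-FKO mice were AdipoQ-Cre; HuRf/f, so they carry the same floxed alleles and lose HuR where the adiponectin promoter drives Cre, that is in adipocytes, while the other cells of the fat pad keep it. The floxed line had earlier been backcrossed to C57BL/6, the antibody was the same for both genotypes, and each genotype gave 1 library, so there are 2 libraries in all, no difference has a replicate check and no test was run. The number and sex of the mice behind each library are not stated in the sources used.

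Values are FPKM, fragments counted per kilobase of an mRNA after division by the mapped total of each library, so they can be compared between genes within a library. Depth per library is not given in the table, and looking for whole-fragment steps among low values left at most 31.1% of 515 values whole in control and 29.1% of 546 in HuR-FKO, so fragment counts and counting errors could not be given. Elavl1, the gene of HuR, had 16.6 FPKM in control and 26.1 FPKM in HuR-FKO. Elavl1 was thus higher in the library labelled as lacking HuR on the deposited scale, and also on TPM over all rows. After median centring, upper-quartile scaling or TPM over coding genes it was higher in control, with log2 ratios of control over HuR-FKO of 1.44, 1.32 and 1.13. Each scaling moves every gene alike, and other cells of the fat pad keep HuR. The direction of Elavl1 was therefore not taken as a check of the labels. Control and HuR-FKO stand throughout for the library labelled control and that labelled HuR-FKO. Of the 5571 protein-coding genes that reached 5 FPKM in at least one library, 92.6% were higher in HuR-FKO, and the median gene was 4.66-fold higher there (log2 ratio of control over HuR-FKO -2.22, SD over genes 1.88). Such genes are called the compared genes here, and their median ratio is called the median ratio, above which Elavl1 lay by 2.97-fold. Enzymes are therefore described both by their FPKM and by their position relative to this median ratio. The median ratio depends on the filter, which 5391 of the compared genes met in HuR-FKO and 2411 in control. When even the lower value had to reach 20 FPKM, 779 genes were left. Their median log2 ratio was -1.55 (2.93-fold higher in HuR-FKO, SD 0.95). Tpi1 (-1.47), Ldha (-1.41) and Gapdh (-1.28) lay nearer to that value than to -2.22. Aldoa (-0.33), which also reached 20 FPKM in both libraries, lay well above both values. Neither input RNA nor an IgG precipitate was analysed, so how abundant an mRNA was and how well the antibody recovered it cannot be told apart, and the same holds for fewer cells of a type and less RNA per cell. Among markers, the 5 adipocyte genes summed to 8207 FPKM in control and 27205.5 FPKM in HuR-FKO, led by Fabp4. On the deposited scale 4 of them were at least 2-fold higher in HuR-FKO, close to the 82.4% of the compared genes. After median centring 4 were on the control side, for which no share of the compared genes was computed. The 4 skeletal muscle genes with a row (Ckm, Myh1, Myh4, Tnnt3) summed to 0.0948 and 0.126 FPKM, with Ckm and Tnnt3 listed at 0 in both. The 3 erythroid genes analysed of 4 listed summed to 475 and 945 FPKM, carried by Hbb-b1 and Hba-a1, while Alas2 was at 8.14 FPKM in control and 1.92 FPKM in HuR-FKO. The 3 macrophage genes summed to 1.61 and 4.35 FPKM with Cd68 listed at 0 in both, and the 3 endothelial genes to 10.9 and 18.0 FPKM. Their part in the enzyme values was not tested.

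On the deposited scale all 10 enzymes had the higher FPKM in HuR-FKO, where 92.6% of the compared genes did, although 5 of them (Hk2, Aldoa, Tpi1, Gapdh and Ldha) turned to the control side after median centring, upper-quartile scaling or scaling to TPM over coding genes of 300 bases or more. On that scale 8 of 10 enzymes were at least 2-fold higher in HuR-FKO, a share close to the 82.4% of the compared genes, and 0 were under median centring. In HuR-FKO 9 of the 10 reached 5 FPKM and in control 7 did, and 7 of the 9 were at least 2-fold higher in HuR-FKO. Pgk1 and Eno1 passed the filter only through HuR-FKO, so their higher value there was fixed by the filter. No enzyme was at least 2-fold higher in control on the deposited scale, where 3.21% of the compared genes were, although 2 (Hk2 and Aldoa) were after median centring, upper-quartile scaling or TPM over coding genes. Over the 10020 genes that reached 1 FPKM, which include Pfkl, the background shares on the deposited scale were 80.3% for HuR-FKO and 4.63% for control. Shares of the compared genes after rescaling were not computed, so the rescaled counts have no matching background. Relative to the median ratio, 21.8% of the compared genes lay at least 2-fold above it and 25.0% at least 2-fold below. Of the 3 enzymes whose higher value lay between 100 and 500 FPKM, Tpi1 and Ldha were at least 2-fold higher in HuR-FKO and Aldoa was not, beside 89.8% of 432 genes at such levels. The median log2 ratio over the 10 enzymes was -1.82, or 3.54-fold, against -2.22 for the compared genes, and the SD over enzymes was 0.85. The enzyme median lay below the -1.55 of the 779 genes whose lower value reached 20 FPKM. Of the 10, only Aldoa, Tpi1, Gapdh and Ldha met that level, and their own ratios lay above -1.55. Of the 10, 6 lay above the median ratio, as 50.0% of genes do by construction.

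**Figure D1:**
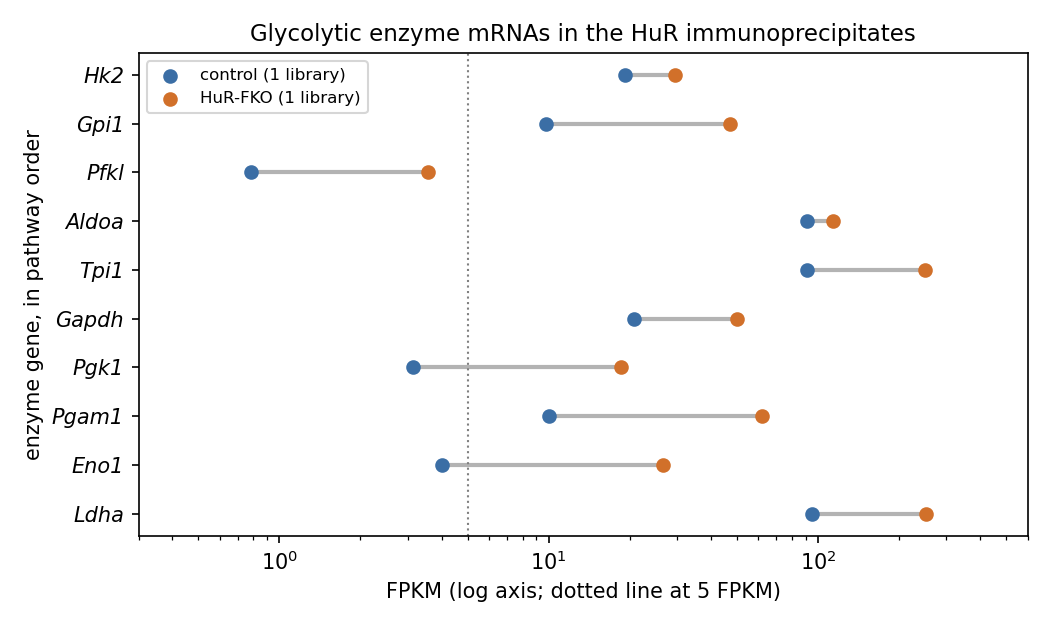
FPKM (log axis) of the 10 enzyme mRNAs, in pathway order, in the control library (blue) and the HuR-FKO library (orange), with 1 library per point. Every orange point lies to the right of its blue point on this scale, by 1.25-fold for Aldoa and 6.64-fold for Eno1, and Pfkl alone stays left of 5 FPKM in both libraries. Rescaling by the median gene would turn Hk2, Aldoa, Tpi1, Gapdh and Ldha.

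The first reactions of the pathway spend ATP. Hk2 (chr6:82725025-82774454 on mm10, minus strand), the insulin-responsive hexokinase of muscle and fat that traps glucose as glucose 6-phosphate, was at 19.3 FPKM in control and 29.5 FPKM in HuR-FKO. This was a 1.53-fold difference (log2 -0.62), so Hk2 lay 3.04-fold above the median ratio, with 87.9% of the compared genes at a lower ratio. Gpi1 (chr7:34202122-34230289, minus strand), the isomerase that makes fructose 6-phosphate, was at 9.78 and 47.2 FPKM, 4.82-fold higher in HuR-FKO and within 1.04-fold of the median ratio. Pfkl (chr10:77986947-78010083, minus strand), the liver form of phosphofructokinase, the committed step, was the least abundant enzyme in both libraries at 0.784 and 3.55 FPKM. It was 4.53-fold higher in HuR-FKO, within 1.03-fold of the median ratio, and it fell short of the filter of 5 FPKM.

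Aldoa (chr7:126795234-126800751, minus strand), the muscle and widely expressed form of aldolase that splits fructose 1,6-bisphosphate, was at 90.8 FPKM in control and 114 FPKM in HuR-FKO. Its 1.25-fold difference (log2 -0.33) was the smallest of the 10, and it lay 3.72-fold above the median ratio, with 90.5% of the compared genes at a lower ratio. Aldoa and Hk2 were the enzymes at least 2-fold above the median ratio, as were 21.8% of the compared genes. Tpi1 (chr6:124810586-124814296, minus strand), which interconverts the triose phosphates, was at 90.7 and 250.5 FPKM. It was 2.76-fold higher in HuR-FKO and lay 1.69-fold above the median ratio. In control the levels of Aldoa and Tpi1 were nearly equal, whereas in HuR-FKO the level of Tpi1 was above that of Aldoa.

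From glyceraldehyde 3-phosphate onward the reactions return ATP. Gapdh (chr6:125161715-125166467, minus strand), which oxidises glyceraldehyde 3-phosphate and is widely used as a reference gene, was at 20.7 FPKM in control and 50.1 FPKM in HuR-FKO, 2.42-fold higher (log2 -1.28) and 1.92-fold above the median ratio. Pgk1 (chrX:106187100-106203699, plus strand), which makes the first ATP of the pathway, was at 3.15 and 18.5 FPKM, a 5.87-fold difference. Pgam1 (chr19:41911871-41918664, plus strand), the mutase that moves the phosphate of 3-phosphoglycerate, was at 9.99 and 61.9 FPKM, a 6.20-fold difference. The 2 genes thus had ratios on the far side of the median ratio from Gapdh. Eno1 (chr4:150236721-150248879, plus strand), the enolase that makes phosphoenolpyruvate, was at 4.004 and 26.6 FPKM, a 6.64-fold difference (log2 -2.73) and the largest of the 10. These 3 consecutive enzymes lay 1.26-fold, 1.33-fold and 1.42-fold below the median ratio. None of the 10 was at least 2-fold below it, as 25.0% of the compared genes were.

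Ldha (chr7:46841475-46855627, plus strand), the lactate dehydrogenase form that favours lactate production, was the most abundant enzyme mRNA in both libraries, at 94.99 FPKM in control and 252.6 FPKM in HuR-FKO. It was 2.66-fold higher in HuR-FKO and 1.75-fold above the median ratio. Over the pathway, the median log2 ratio was -1.47 for the 5 genes from Hk2 to Tpi1 and -2.55 for the 5 from Gapdh to Ldha. The second set holds all 4 enzymes with near-identical copies at 5 FPKM or more, described later. Place in the pathway and the presence of copies therefore cannot be told apart here. Ratios of the 10 spanned 2.40 on the log2 scale, so the enzymes did not share one ratio, and with 1 library per genotype the share of this span that is measurement error is not known.

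**Figure D2:**
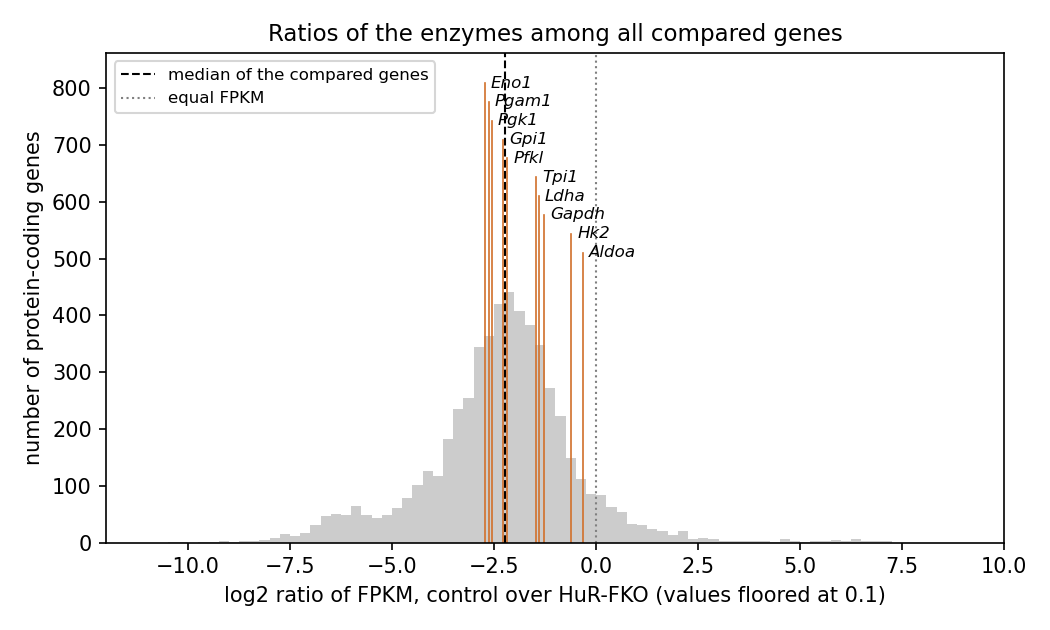
Histogram of log2 ratios of FPKM, control over HuR-FKO, for the 5571 compared genes (grey), with the 10 enzymes as orange lines. The enzymes run from -2.73 (Eno1) to -0.33 (Aldoa), around and to the right of the median of -2.22 (dashed). Pfkl, below the filter, is drawn at its ratio without being among the grey genes.

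The order of levels within a library does not depend on the scaling of that library, but it does depend on whether near-identical copies, described later, are added, and it is given here for the enzyme rows alone. In control the order was Ldha, Aldoa, Tpi1, Gapdh, Hk2, Pgam1, Gpi1, Eno1, Pgk1 and Pfkl. In HuR-FKO it was Ldha, Tpi1, Aldoa, Pgam1, Gapdh, Gpi1, Hk2, Eno1, Pgk1 and Pfkl. Levels of the 10 spanned 121-fold in control and 71.1-fold in HuR-FKO. Ldha, Tpi1 and Aldoa held 80.3% of the summed FPKM of the 10 in control and 72.2% in HuR-FKO. Only 199 protein-coding genes had a higher FPKM than Ldha in control and 250 in HuR-FKO, whereas 3198 and 2292 had a higher FPKM than Pgk1. Neighbours in the order, such as Aldoa (90.8 FPKM) and Tpi1 (90.7 FPKM) in control or Tpi1 and Ldha in HuR-FKO, cannot be separated without replicates.

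Gapdh, Pgk1, Pgam1 and Eno1 stood beside near-identical copies of the same genes in the table. Mouse glycolytic genes have many processed copies, made when their mRNA was copied back into the genome. Annotated transcripts at 95% identity or more over at least 80% of the enzyme's longest coding sequence were found for 5 enzymes, and 4 of them had copies at 5 FPKM or more. Gapdh had 69 such copies, of which 64 were analysed here, all 64 above 0 in at least one library. Pgk1 had 2 and Pgam1 had 1, all analysed, and 2 of the 3 copies of Eno1 were. The 2 copies of Ldha were not analysed here, and Hk2, Gpi1, Pfkl, Aldoa and Tpi1 had none at this identity.

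Copies of Pgam1 and Eno1 carried values close to those of the enzymes. Pgam1-ps2, identical to Pgam1 over all 765 coding bases, was at 10.7 FPKM in control and 64.4 FPKM in HuR-FKO, beside 9.99 and 61.9 FPKM for Pgam1. Pgk1-rs7, identical over 1253 bases, was at 2.16 and 18.5 FPKM, and Gm5537, identical over 1252 bases, was at 1.92 and 12.8 FPKM. Of the copies of Eno1, Gm4735 was at 3.47 FPKM in control and 27.5 in HuR-FKO, Gm5506 was at 3.20 and 25.4 FPKM, and both were 7.94-fold higher in HuR-FKO. Reads that fall in shared sequence cannot be assigned to one of these rows with certainty, and how such reads were counted is not stated in the sources used.

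A stretch of the Eno1 coding sequence and of its copy Gm4735 is shown because 5 of 1302 aligned bases separate the pair, and 1 of them, in capitals, falls in this window. The Eno1 stretch lies at chr4:150246603-150246632 (mm10, plus strand, bases 701 to 730 of the coding sequence).
Eno1: ccggctacactgaccaggttgtcatTggca
Gm4735: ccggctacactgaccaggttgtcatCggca
The longest run without a difference was 725 bases for this pair.

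Among Gapdh copies, 8 reached 5 FPKM in either library. Gm5559, which differs from Gapdh at 1 of 1002 aligned bases, was at 9.503 FPKM in control and 46.8 FPKM in HuR-FKO, close to Gapdh itself in the latter. A row listed as GAPDH, named Gm3839 in the annotation, was at 3.70 and 28.4 FPKM, and Gm12033 at 3.43 and 17.7 FPKM. Gm20899, Gm3272, Gm2574, Gm13394 and Gm12070 were between 1.58 and 2.95 FPKM in control and between 7.79 and 14.2 FPKM in HuR-FKO. The row of Gapdh held 33.4% of the summed FPKM of Gapdh and all its copies in control and 23.8% in HuR-FKO.

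Adding the copies to each enzyme changed levels more than ratios. Gapdh came to 61.8 FPKM in control and 210.2 FPKM in HuR-FKO, and its difference moved from 2.42-fold to 3.40-fold, 1.37-fold above the median ratio. Eno1 came to 10.7 and 79.5 FPKM (7.46-fold), Pgk1 to 7.22 and 49.7 FPKM (6.88-fold) and Pgam1 to 20.7 and 126 FPKM (6.11-fold). With copies added, the order in HuR-FKO became Ldha, Tpi1, Gapdh, Pgam1, Aldoa, Eno1, Pgk1, Gpi1, Hk2 and Pfkl, and the median log2 ratio of the 10 was -1.97. The 4 enzymes whose copies were at 5 FPKM or more had log2 ratios from -2.73 to -1.28, and the other 6, with Ldha among them, had ratios from -2.27 to -0.33, a median of -1.44. The part of the copies in this difference was not tested.

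**Figure D3:**
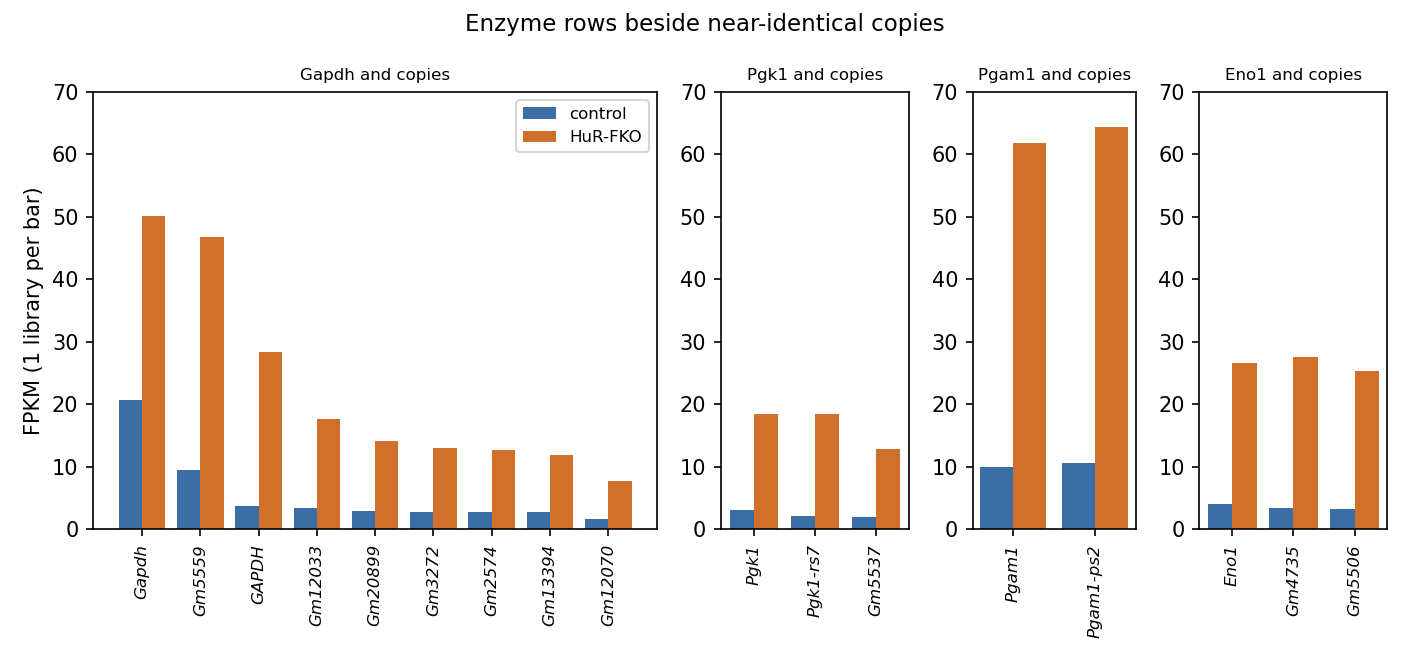
FPKM of Gapdh, Pgk1, Pgam1 and Eno1 and of their near-identical copies that reached 5 FPKM, in control (blue) and HuR-FKO (orange), with 1 library per bar. Copies of Pgam1 and Eno1 stand at nearly the height of the enzyme, 64.4 against 61.9 FPKM for Pgam1 in HuR-FKO, and Gapdh copies run from 7.79 to 46.8 FPKM there.

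Genes that overlap the enzymes on the other strand had low FPKM of their own, and how many of their reads were counted into the enzyme rows was not tested. Spsb2, which overlaps Tpi1, was at 0.404 FPKM in control and 0.532 FPKM in HuR-FKO, and Iffo1, which overlaps Gapdh, was at 0.663 and 3.03 FPKM. Fam57b, which overlaps Aldoa, was listed at 0 in both. The noncoding genes Gm17034 at Hk2 and Gm26762 at Gpi1 stayed at or below 0.561 FPKM.

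Most steps are carried by several isozymes, so 4 of the steps were also read as each isozyme's share of the summed FPKM of the step within a library, a quantity that scaling between libraries does not change. Pgam1 held 100% of phosphoglycerate mutase FPKM in control and 97.2% in HuR-FKO, and the muscle form Pgam2 was listed at 0 in control and at 1.78 FPKM in HuR-FKO. Eno1 held 81.4% and 96.6% of enolase FPKM, with the neuronal form Eno2 at 0.339 and 0.715 FPKM. The muscle form Eno3 was at 0.578 FPKM in control and listed at 0 in HuR-FKO. An exact 0 may be a failed estimate, so the shares of Pgam1 in control and Eno1 in HuR-FKO rest on the 0 of Pgam2 and of Eno3. They also leave out the near-identical copies, among them Gm5506, annotated as the protein-coding gene Eno1b. Of the summed FPKM of enzyme and copies, the Eno1 row held 37.5% in control and 33.4% in HuR-FKO. The Pgam1 row held 48.4% and 49.0%.

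The balance of lactate dehydrogenase isozymes differed between the libraries. Ldhb, the heart form that favours lactate use, was at 3.37 FPKM in control and 75.6 FPKM in HuR-FKO, 22.4-fold higher (log2 -4.49, against a median ratio of -2.22). Ldhb was under 5 FPKM in control and passed the filter only through HuR-FKO, so its higher value there was fixed by the filter. Ldha was 28.2 times the level of Ldhb in control and 3.34 times in HuR-FKO. The share of Ldha was therefore 96.6% in control and 77.0% in HuR-FKO.

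Phosphofructokinase was the step where the enzyme followed here was not the main form. Pfkp, the platelet form, was at 4.89 FPKM in control and 9.73 FPKM in HuR-FKO, 6.24 and 2.74 times the level of Pfkl. Pfkp too passed the filter only through HuR-FKO. The share of Pfkl was 13.3% in control and 22.3% in HuR-FKO. Pfkm, the muscle form, was at 0.207 and 2.61 FPKM, a 12.6-fold difference between low values.

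Of other enzymes that phosphorylate glucose, Hk1 was at 0.320 FPKM in control and 0.412 FPKM in HuR-FKO, beside 19.3 and 29.5 FPKM for Hk2, and Hk3 and Hkdc1 were listed at 0 in both. Adpgk, an ADP-dependent glucokinase, was at 5.23 FPKM in HuR-FKO and listed at 0 in control. No fold is given against this 0. The brain aldolase Aldoc was listed at 0 in both. Pyruvate kinase, the step between Eno1 and Ldha, was carried by Pkm at 12.2 FPKM in control and 49.6 FPKM in HuR-FKO, 4.05-fold higher before and on the control side after median centring, with the liver and red cell form Pklr listed at 0 in both. The sperm forms Gapdhs, Pgk2 and Ldhc were listed at 0 in both libraries, while the sperm genes Prm1 and Prm2 were at 7.73 and 2.22 FPKM in HuR-FKO and listed at 0 in control.

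**Figure D4:**
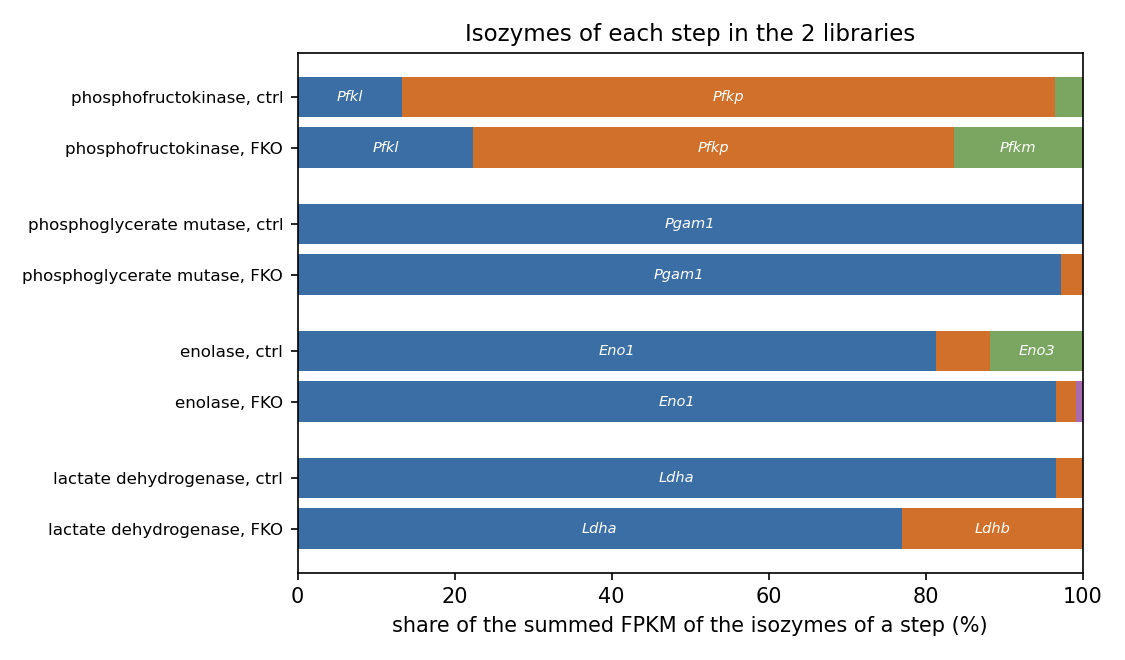
Share of the summed FPKM of the isozymes of 4 steps (percent), with 1 bar per library (ctrl, control; FKO, HuR-FKO). Ldha fills 96.6% of its bar in control and 77.0% in HuR-FKO, with Ldhb the rest, and Pfkp holds the larger part of phosphofructokinase in both. Near-identical copies are not included.

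The 3′ UTRs were searched for sequences of the kind HuR is known to bind, the pentamer ATTTA and a run of 7 T (TTTTTTT), on the mRNA strand, counting overlapping matches. Of the enzymes, 4 of 10 held ATTTA, and so did 60.9% of the 5443 compared genes with a 3′ UTR. Among the 10, only Hk2 held a run of 7 T, beside 38.7% of the compared genes. The 3′ UTRs of the enzymes had a median of 584 bases, against 773 over the compared genes, and a median A and T content of 50.4%, against 55.3%. At like length, within 0.8 to 1.25 times, ATTTA was found in 94.5% of 3′ UTRs as long as that of Hk2 (2285 bases) and 21.2% of those as long as that of Aldoa (183 bases). For Pfkl and Pgk1, which also held it, the shares were 83.8% and 42.9%. Among enzymes without it, the shares were 78.1% for Gpi1, 68.5% for Pgam1 and 60.3% for Tpi1. They were 49.0% for Ldha, 35.4% for Eno1 and 22.25% for Gapdh.

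The sites are shown in lower case with ATTTA in capitals, since Hk2 and Aldoa, the enzymes farthest above the median ratio, were among those that held it. The sites were read from GENCODE M21 transcripts on mm10. The Hk2 site lies at chr6:82726621-82726650 (minus strand), where 2 pentamers overlap, out of 7 in its 3′ UTR.
Hk2: tgtttgaaATTTATTTAgtttgaagcaggt
Aldoa, at chr7:126795236-126795265 (minus strand), had a single match, near the end of its 3′ UTR.
Aldoa: cccactgccaataaacaactATTTAagggg
Pgk1 had 2 matches, the second at chrX:106203502-106203531 (plus strand).
Pgk1: tagagggcgtctATTTAtattctgcctgag
Pfkl had 3 matches, the first at chr10:77987796-77987825 (minus strand).
Pfkl: atagtttgtttaATTTAtataagtacactg

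Enzymes with and without the pentamer overlapped in their ratios. With it, log2 ratios were -0.33 for Aldoa, -0.62 for Hk2, -2.18 for Pfkl and -2.55 for Pgk1, a median of -1.40. The 6 enzymes without it had a median of -1.87 and ran from -2.73 (Eno1) to -1.28 (Gapdh). Over all compared genes the medians were -2.20 for 3313 genes with ATTTA and -2.26 for 2130 without. A match is a run of letters in the annotated 3′ UTR and not a measured binding site.

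Genes around glycolysis were read from lists of regulators, transporters and side branches, with counts over those past the filter of 5 FPKM and folds on the deposited scale. Median centring adds 2.09 to every log2 ratio and turned some genes of each list to the control side. The share of the compared genes that it turns was not computed. Their median log2 ratio after it was -0.13, so counts on the control side do not set a list apart from other genes. Counts of genes at least 2-fold higher stand beside 82.4% of the compared genes for HuR-FKO and 3.21% for control. Genes under 5 FPKM in control passed only through HuR-FKO, so their higher value there was fixed by the filter. Pfkfb1, Slc2a3 and Gpd2 were such genes, as were Ugp2, Gys1, Gyg, Gbe1 and Pygb in glycogen metabolism, among others. Of regulators of phosphofructokinase, 2 of 5 reached the filter and 1 of them, Pfkfb3, turned. Pfkfb3, which makes the activator fructose 2,6-bisphosphate, was at 10.4 FPKM in control and 18.4 FPKM in HuR-FKO, a 1.77-fold difference like that of Hk2. The liver and muscle form Pfkfb1 was at 0.647 and 17.0 FPKM, 26.3-fold higher in HuR-FKO. Pfkfb2 (0.315 and 2.33 FPKM) and Pfkfb4 (0.403 and 0.962 FPKM) were low in both.

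Among 8 transporters of glucose and lactate, 4 reached the filter and 3 of these were at least 2-fold higher in HuR-FKO, while 2 lay on the control side after median centring. Bsg, the partner of the lactate carriers, was at 65.8 FPKM in control and 211 FPKM in HuR-FKO. Slc16a1, which encodes the lactate carrier MCT1, was at 7.38 and 14.3 FPKM, a 1.93-fold difference. Slc2a4, the insulin-regulated glucose transporter GLUT4, was at 5.83 and 50.1 FPKM, 8.59-fold higher. Slc2a3 (GLUT3) was at 0.339 and 5.10 FPKM.

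Of 12 genes for the entry of pyruvate into mitochondria, 8 reached the filter, 7 were at least 2-fold higher in HuR-FKO and 1 was at least 2-fold higher in control, beside 82.4% and 3.21% of the compared genes, while 6 lay on the control side after median centring. The subunits of the mitochondrial pyruvate carrier lay on opposite sides on the deposited scale. Mpc1 was at 28.1 FPKM in control and 13.1 FPKM in HuR-FKO, 2.14-fold higher in control, and Mpc2 at 65.0 and 219 FPKM, 3.36-fold higher in HuR-FKO. Scaling to TPM over all rows turned Mpc1 to the HuR-FKO side, and the other 3 scalings turned Mpc2 to the control side. Pdhb, a pyruvate dehydrogenase subunit, was at 31.8 and 79.8 FPKM, and Pdha1, another subunit, at 14.9 and 48.4 FPKM. Pdk4, a kinase that inhibits pyruvate dehydrogenase, was at 6.73 and 48.2 FPKM, 7.17-fold higher in HuR-FKO.

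The pentose phosphate pathway had 7 of 8 genes past the filter, all at least 2-fold higher in HuR-FKO, beside 82.4% of the compared genes, with 3 on the control side after median centring. Taldo1, a transaldolase, was at 89.3 FPKM in control and 466 FPKM in HuR-FKO, and Tkt, a transketolase, at 75.3 and 231 FPKM. The lactonase Pgls was at 33.7 and 154 FPKM, and Pgd, which makes NADPH, at 32.5 and 106 FPKM. The list median was -2.20, next to that of all genes.

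In glycogen metabolism 8 of 11 genes passed and all 8 were at least 2-fold higher in HuR-FKO, beside 82.4% of the compared genes, with 3 on the control side after median centring and a list median of -2.58. Gys2, the liver form of glycogen synthase, was at 11.8 and 76.6 FPKM, and Pygl, the liver form of glycogen phosphorylase, at 16.7 and 54.7 FPKM. The muscle form Gys1 was at 3.47 and 32.4 FPKM and the brain form Pygb at 3.83 and 22.5 FPKM. In gluconeogenesis and glycerol 3-phosphate supply, 4 of 10 passed and all 4 were at least 2-fold higher in HuR-FKO, beside 82.4% of the compared genes, with 1 on the control side after median centring and a list median of -2.56. Gpd1, which turns the glycolytic intermediate dihydroxyacetone phosphate into glycerol 3-phosphate, was at 21.8 and 131 FPKM, and Pck1, which makes phosphoenolpyruvate from oxaloacetate, at 32.0 and 88.3 FPKM. Pcx, pyruvate carboxylase, was at 14.6 and 84.5 FPKM and the mitochondrial dehydrogenase Gpd2 at 0.901 and 8.64 FPKM.

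**Figure D5:**
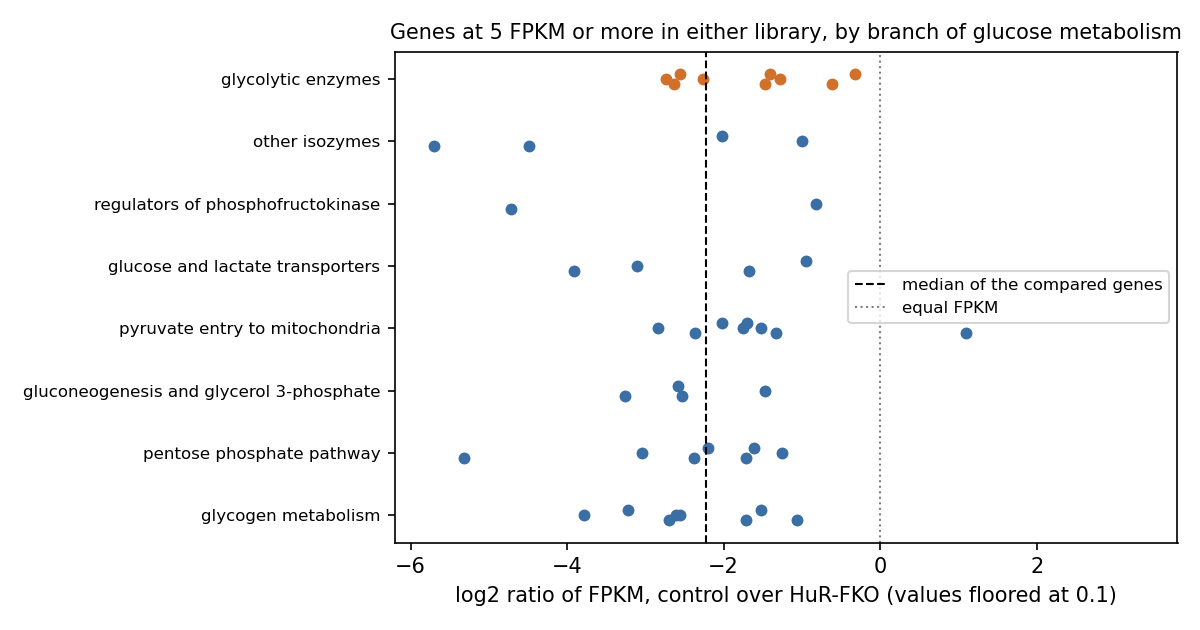
Log2 ratios of FPKM, control over HuR-FKO, for the 9 glycolytic enzymes past the filter of 5 FPKM (orange) and for genes of 7 related lists past it (blue), with 1 gene per point. The enzymes run from -2.73 to -0.33. Ldhb (-4.49), Pfkfb1 (-4.71) and G6pdx (-5.31) of the pentose phosphate list lie far to the left, and each passed the filter only through HuR-FKO. Mpc1 alone lies right of equal FPKM before rescaling, which moves all points together and would turn some. Adpgk, the leftmost point, is listed at 0 in control and is drawn at the floor.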

How the data were processed

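RIP-seq libraries of eWAT, 1 control and 1 HuR-FKO, were compared, grouped by the genotype in the labels. The authors deposited FPKM values per gene in 1 table. TopHat, Cufflinks 2.1.1, TopHat2 2.0.11 and the build mm10 are listed by the submitters. The study describes its RNA-seq libraries as strand-specific. The gene annotation, the strand setting used in counting, duplicate handling and the treatment of reads with several matches are not stated in the sources used. FPKM divides by each library's total, so abundant RNAs lower all other values of that library.

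Biotypes, transcripts and 3′ UTRs came from GENCODE M21 on the same build (36489 of 38396 rows matched). Where several transcripts exist, that with the longest coding sequence was used. Values under 0.1 FPKM were set to 0.1 for log2 ratios, and protein-coding genes that reached 5 FPKM in at least one library were compared, following the floor and filter of the study's own table. A 2-fold difference was counted. Table starts count from 0 and were raised by 1. Copies were found with blastn 2.17.0, and ratios were computed in Python 3.11.15 with pandas 2.3.3, checked on simulated data.

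Named genes were the 10 enzymes, other isozymes at 1 FPKM or more in either library, up to 4 genes per list with the highest FPKM, copies at 5 FPKM or more, overlapping genes and Elavl1. Other isozymes below 1 FPKM, list genes beyond these 4 and the markers named in the text were chosen after their values were seen. The members and lists were chosen with earlier results of these data known. Alternatives were other pseudocounts, filters, scalings and backgrounds, symbols summed and copies added. Some isozymes are not reported here.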

Additional observations from a re-analysis of the deposited data

How the results depend on the processing

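The median log2 ratio of the 10 enzymes, -1.82, was -1.76 with 0.1 FPKM and -1.43 with 1 FPKM added to both values, and -1.97 with copies added. It was -3.18 on TPM over all rows and -0.045 on TPM over coding rows of 300 bases or more. It reversed under median centring (0.27) and upper-quartile scaling (0.15). These scalings add 2.09, 1.98, -1.36 (TPM over all rows) and 1.78 (TPM over coding rows) to every log2 ratio, so positions relative to the median ratio stay as they are. The number of enzymes at least 2-fold higher in HuR-FKO was 0 under median centring, upper-quartile scaling and TPM over coding rows, and 10 on TPM over all rows. The share of the compared genes moves with the same shifts and was not computed, so these counts do not set the enzymes apart from other genes. Tpi1, Gapdh and Ldha reversed to 0.63, 0.82 and 0.68 after median centring, to 0.51, 0.70 and 0.56 after upper-quartile scaling, and to 0.31, 0.50 and 0.37 on TPM over coding rows. The number of enzymes above the median ratio was 2 with no filter on low values, where genes under 0.1 FPKM in both libraries have a log2 ratio of 0 and the median of all genes was -0.78, and between 5 and 7 under the other filters and backgrounds. Without the 4 enzymes that have copies at 5 FPKM or more, an alternative chosen after seeing the data, the median was -1.44 and 4 enzymes were at least 2-fold higher in HuR-FKO. Summing rows that share a symbol and using all rows as background left the counts for the enzymes as they were. No paired analysis was possible because each genotype has 1 library, and for the same reason no library could be left out. Depth is not given, so the precision of low values such as Pfkl in control is unknown.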
